A study of Mus musculus with 20 samples.

Results

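The 3' part of the T-cell receptor alpha and delta locus (Tcra and Tcrd) was examined in CD4+/CD8+ double-positive thymocytes of wild-type C57BL/6 mice. It was taken as the peaks lying wholly between bases 54720000 and 54880000 of mouse chromosome 14 in build mm9, a window of 160 kb. Of the 270514 peaks in the 16 deposited lists, 304 lay there. All coordinates that follow are on chromosome 14 in mm9 unless another chromosome or build is named. Per the protocol given with the FAIRE and RNA samples, the mice were 5 to 6 weeks old and cells were selected on magnetic beads for CD8 and then for CD4. There were no other genotypes, treatments or times, and there was 1 list per target, so no value could be set against a spread between replicates and no test was made. Chromatin immunoprecipitation and sequencing gave 15 lists, and FAIRE, which isolates open chromatin, gave the other. The histone marks were H3K36me3, H3K4me3 and H3K4me1. Polymerase was measured as total RNA polymerase II (Pol II) and in the forms phosphorylated on serine 2 (Ser2P) and serine 5 (Ser5P) of its tail. The general factors were TBP with TFIIB, the TFIID subunit Taf1, and TFIIH, TFIIE, TFIIF and TFIIA, and the regulators were ETS1 and CBP. The lists hold no expression values, so the sorted cell type was not checked against its marker genes.

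Tcra encodes the alpha chain of the T-cell receptor and is assembled in double-positive thymocytes by joining a V segment to a J alpha segment. Tcrd lies inside Tcra, so joining V to J alpha deletes it. Assembly needs germline transcription through the J alpha array, which starts at promoters in and before the array and depends on the alpha enhancer located after the constant region, on the far side of which lies Dad1, a subunit of the oligosaccharyltransferase complex. RAG2, a subunit of the recombinase, binds H3K4me3. In the RefSeq table of build GRCm38.p6, used here for gene order alone, the delta constant region Trdc was followed by Trdv5, by 51 J alpha segments and 9 J alpha pseudogenes, by the alpha constant region Trac, by Dad1 and by Abhd4. No annotation of mm9 was used, so no peak was assigned to a segment, to the enhancer or to a start site. Cells with different rearrangements were pooled in each list, and all alleles were placed on the same reference sequence.

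**Figure D1:**
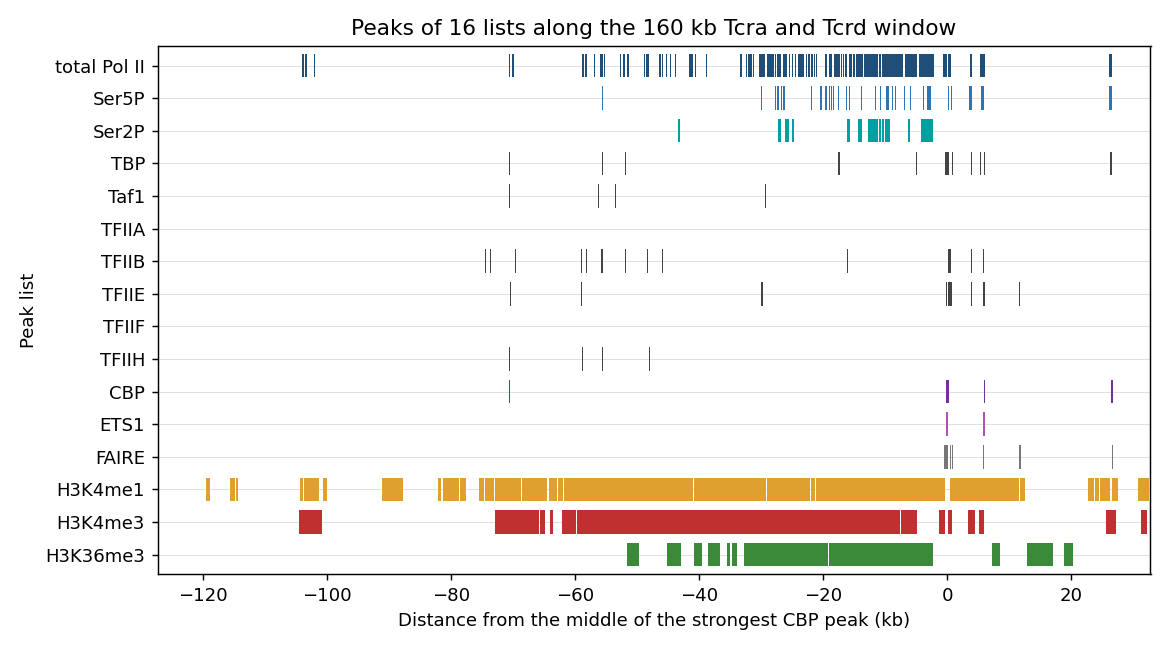
Peaks of each of the 16 lists along the window. The horizontal axis gives the distance in kb from the middle of the CBP peak of highest area, each row is a list, and each bar is a peak drawn to scale with a minimum width for visibility. H3K4me3 and H3K4me1 cover a long stretch to the left of the CBP peak, total Pol II and Ser2P fill its right part, and TFIIA and TFIIF have no peak.

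The locus was covered by H3K4 methylation over most of its length. H3K4me1, found at enhancers and around active promoters, had 49 peaks covering 103.7 kb, or 64.8% of the window, and H3K4me3, the usual mark of active promoters, had 24 peaks covering 74.5 kb, or 46.6%. Of the 16514 other tiles of 160 kb into which the genome was divided, 0 (0%) had more covered length of either mark. The highest other tile reached 51.4 kb for H3K4me3 and 99.1 kb for H3K4me1, and the median over tiles with any H3K4me3 was 2.41 kb.

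A single H3K4me3 peak at 54808561 to 54833690 spanned 25130 bp and was the widest of the 28013 in its list. The next widest, on chromosome 3, spanned 13210 bp. By area, the measure the authors give for each peak, the Tcra peak ranked 14th. Peaks of 8940 bp (54797401 to 54806340, rank 243) and 9810 bp (54787541 to 54797350, rank 265) preceded it. By area per base the 3 peaks ranked 14939, 16204 and 17742 of 28013 in that order, so their high area ranks reflect their width. In the whole list 22 H3K4me3 peaks were 8 kb or wider, and 3 of these were in the window. Together with another long peak of 5600 bp at 54834101 to 54839700, they bounded a stretch of 52.2 kb of which 99.7% was covered by H3K4me3 and 98.5% by H3K4me1. Without the 25130 bp peak the window held 49.4 kb of H3K4me3, and 1 other tile had more.

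H3K4me1 had its leading peak at 54787101 to 54801850, 14750 bp wide, rank 13 of 74607 by area. It lay at the left end of the H3K4me3 stretch. The H3K4me1 peaks next in rank were at 54853181 to 54857870 (rank 432), which began at the right-hand CBP and ETS1 site described below, and at 54833561 to 54840700 (rank 513). Left of the H3K4me3 stretch the marks thinned out. The 10 kb bins 1 and 2 of the window held no H3K4me3, and bins 4 and 5 held H3K4me1 over 34.5% and 36.5% of their length and no peak of any other list. Between them, bin 3 held an isolated H3K4me3 peak of 3720 bp at 54742711 to 54746430, rank 1675, with 3 total Pol II peaks and no peak of any other factor.

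H3K36me3, a mark left in transcribed gene bodies, covered 45.7 kb with 16 peaks, less than in 573 other tiles. Of those bases, 36.0 kb (78.8%) also lay in H3K4me3 peaks, against 0.504% over the whole H3K36me3 list. By number, 11 of the 16 H3K36me3 peaks overlapped H3K4me3, against 1.19% of all H3K36me3 peaks. H3K4me3 covered 46.6% of the window, and no share of overlap here or below was adjusted for covered length. Cells and alleles were pooled in each list, so overlaps here and below do not show that both lay on the same allele. The H3K36me3 peaks of highest area were at 54828191 to 54840730 (12540 bp, rank 425 of 49181), at 54815451 to 54825870 (10420 bp, rank 1304) and at 54860141 to 54863310 (3170 bp, rank 5472). The first of these ran past the right end of the H3K4me3 stretch, the second lay inside it, and the third lay to the right of both ETS1 sites described below. H3K36me3 ran on to 54844990, past the end of the adjoining H3K4me3 peaks at 54842320. The 5 H3K36me3 peaks without H3K4me3 were the one that closed that run, at 54842401 to 54844990, and the 4 to the right of the ETS1 sites.

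**Figure D2:**
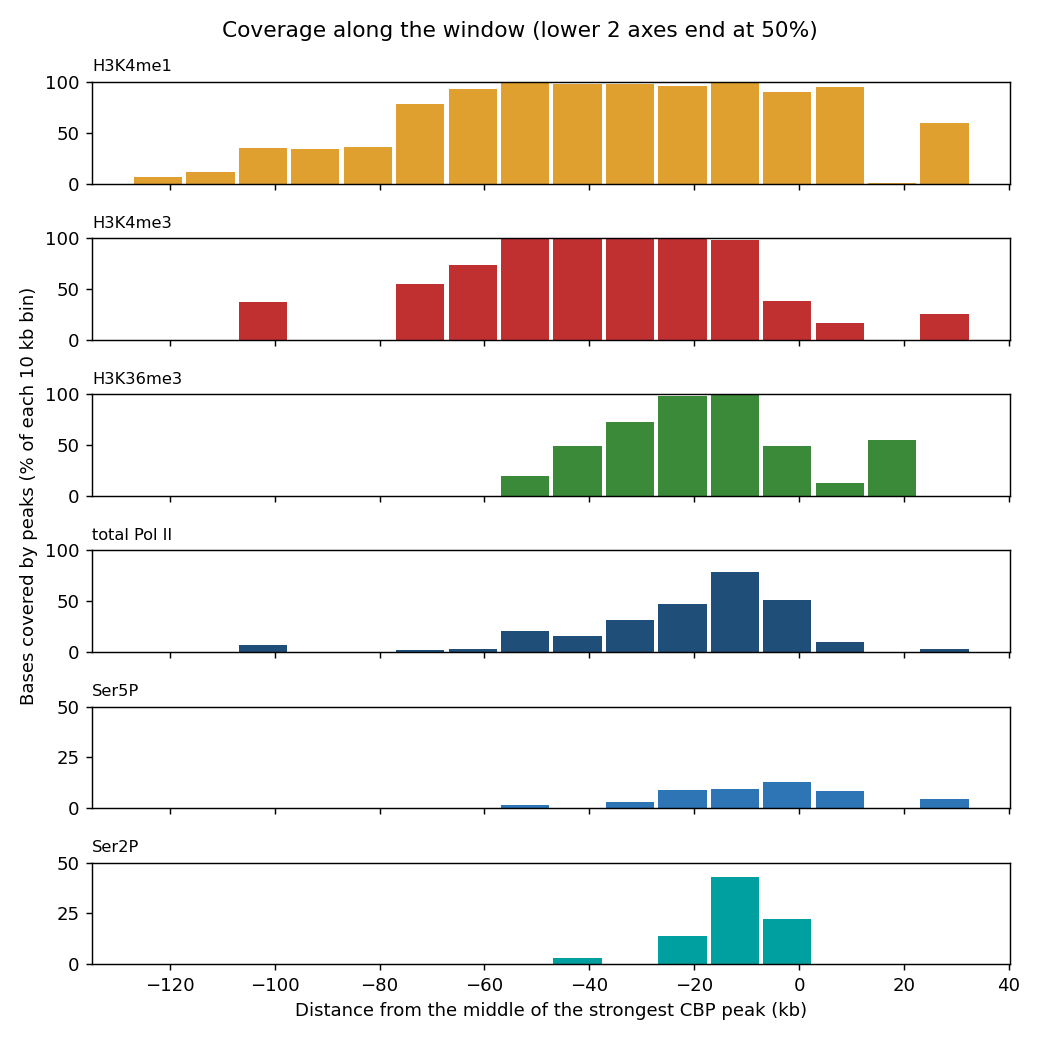
Share of each 10 kb bin covered by peaks of 6 lists, as bars, against the distance in kb from the middle of the strongest CBP peak. The axes of Ser5P and Ser2P end at 50%. H3K4me3 stands at 98.6% or more in 5 adjacent bins, while H3K36me3, total Pol II and Ser2P rise towards the right end of that stretch.

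Total Pol II had 106 peaks covering 27.1 kb, and 6 of the other tiles (0.0363%) had a greater covered length. H3K4me3 overlapped 102 of the 106 (96.2%), against 64.3% of the whole list, and H3K36me3 overlapped 67 (63.2%, 53.3 to 72.4), against 13.9%. Coverage was higher towards the right of the H3K4me3 stretch. It went from 3.40% of bin 7 to 20.9% of bin 8, 15.4% of bin 9, 31.2% of bin 10, 47.0% of bin 11 and 78.8% of bin 12, and then fell to 50.8% of bin 13. The leading total Pol II peaks were at 54842771 to 54844950 (2180 bp, rank 83 of 18037), 54833751 to 54836140 (2390 bp, rank 108) and 54836931 to 54838820 (1890 bp, rank 194). The median total Pol II peak ranked at 51.0% of its list, and 2 of the 106 were in its upper 1%.

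Ser2P, which marks polymerase in productive elongation, had 13 peaks covering 8.20 kb, more than all but 10 of the other tiles (0.0606%). Its peaks of highest area were at 54843091 to 54844970 (1880 bp, rank 33 of 1811), 54834731 to 54836070 (rank 125) and 54837191 to 54838030 (rank 226). All 13 lay between 54803901 and 54844970, a stretch of 41.1 kb. Of the 13, 12 overlapped H3K4me3 (exact 95% interval 64.0 to 99.8%), against 14.7% of all Ser2P peaks. All 13 overlapped H3K36me3, against 53.7%. The peak without H3K4me3 was the leading Ser2P peak, at the right end. Total Pol II overlapped 12 of the 13 (51.8% in the whole list) and Ser5P 8 of the 13 (13.5%).

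Ser5P, acquired as polymerase leaves the promoter, had 38 peaks over 4.88 kb, and 21 other tiles (0.127%) had more. The leading peak, 580 bp at 54844041 to 54844620, ranked 801 of 10644 and lay inside the leading Ser2P peak. It was followed by peaks at 54873381 to 54873850 (rank 1087) and 54850841 to 54851250 (rank 1148). H3K36me3 overlapped 30 of the 38 Ser5P peaks, 78.9% (exact interval 62.7 to 90.4), against 4.29% of all Ser5P peaks. H3K4me3 overlapped 36 of the 38, against 78.7%, and Ser2P overlapped 13 (34.2%, 19.6 to 51.4), against 3.37%. Most Ser5P peaks of the window were weak, with a median rank at 66.2% of the list.

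The 70 total Pol II and 30 Ser5P peaks inside the Ser2P stretch seldom coincided with initiation factors. TBP, which nucleates the preinitiation complex, overlapped 2 of those 70 and 0 of those 30. Outside the stretch it overlapped 9 of 36 total Pol II and 6 of 8 Ser5P peaks. Over the window TBP met 11 of 106 total Pol II peaks (10.4%, exact interval 5.30 to 17.8), against 50.0% of the whole total Pol II list. For Ser5P the count was 6 of 38 (15.8%, 6.02 to 31.3), against 58.9%. TFIIB, which bridges TBP and Pol II, overlapped 0 of the 70 total Pol II peaks inside the stretch and 8 of the 36 outside it. TFIIE, which recruits TFIIH, overlapped 1 and 5. Over the window this came to 8 of 106 for TFIIB (7.55%, exact interval 3.31 to 14.3), against 30.3% of the whole total Pol II list, and to 6 of 106 for TFIIE (5.66%, 2.11 to 11.9), against 37.6%.

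In all, the Ser2P stretch held 3 TBP peaks, 1 TFIIB peak, 1 TFIIE peak and 1 Taf1 peak, and no peak of TFIIH, CBP, ETS1 or FAIRE. The stretch had the longest run of adjoining factor peaks in the window. With peaks of the 13 narrow lists (all but the histone marks) joined where at most 1000 bp apart, a group of 31.2 kb formed at 54813841 to 54845010, the 5th widest of 42650 such groups. It contained 65 total Pol II, 30 Ser5P and 12 Ser2P peaks.

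TBP itself had 14 peaks, all outside the upper 10% of its list. Of these, 13 overlapped total Pol II (60.9% of all TBP peaks did), 12 overlapped H3K4me3 (66.3%), and 5 overlapped CBP (11.8%). The TBP peaks of highest area, 54847271 to 54847540 (rank 2050 of 15651), 54852551 to 54852730 (rank 3302) and 54853121 to 54853270 (rank 5500), lay at the sites of CBP and ETS1. Taf1, the largest subunit of TFIID, had 4 peaks, at 54776621 to 54776760 (rank 4104 of 13518), 54817831 to 54817900 (rank 9900), 54793631 to 54793680 (rank 11373) and 54790961 to 54790990 (rank 12937). All 4 overlapped H3K4me3, as did 8.57% of the whole list. TFIIH, whose helicase opens promoter DNA, also had 4 peaks, and all overlapped H3K4me3 (22.2% in the whole list). They were at 54776601 to 54776790 (rank 1760 of 8618), 54791601 to 54791740 (rank 4167), 54788341 to 54788490 (rank 4768) and 54799101 to 54799160 (rank 7939). Taf1 and TFIIH overlapped each other at 1 site, 1 of 4 peaks of each, where 23.1% of all Taf1 peaks met TFIIH and 35.9% of all TFIIH peaks met Taf1. All 8 peaks lay to the left of the CBP peak of highest area.

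TFIIB had 14 peaks, of which 12 overlapped H3K4me3 (69.7% in the whole list) and 4 overlapped TBP (53%). In covered length, 30 other tiles (0.182%) had more TFIIB. Its strongest peak, at 54847301 to 54847530 (rank 862 of 10999), lay at the CBP site. The next were at 54791491 to 54791760 (rank 1038) and 54788151 to 54788390 (rank 1863), in the left part of the H3K4me3 stretch. Of the 14 TFIIB peaks, 9 lay at or left of 54801310 and 4 at or right of 54847301. TFIIE had 8 peaks, led by 54847291 to 54847980 (690 bp, rank 169 of 11678), 54851021 to 54851230 (rank 3118) and 54853081 to 54853250 (rank 5089). The leading TFIIE peak was the 26th widest of its list. Of the 8, 6 overlapped total Pol II (61.8% in the whole list), 6 overlapped H3K4me3 (60.4%), 4 overlapped FAIRE (23.7%) and 3 overlapped ETS1 (8.11%). TFIIA, which steadies TBP on DNA, and TFIIF, which escorts Pol II to the promoter, had no peak in the window. At least 1 peak of TFIIA was found in 29.9% of the other tiles and of TFIIF in 6.87%, and an absent peak shows only that none passed the authors' threshold.

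**Figure D3:**
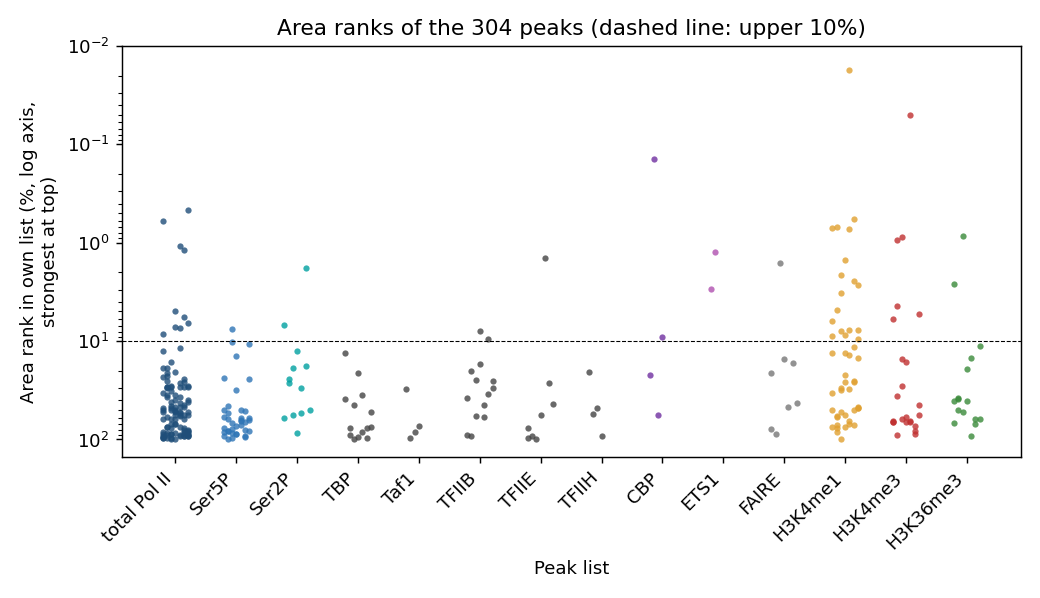
Area rank of each of the 304 peaks within its own list, in percent on a log axis with the strongest peaks at the top, for the 14 lists with a peak in the window. Each point is a peak, and the dashed line marks the upper 10%. CBP, H3K4me1 and H3K4me3 each have a peak above 0.2%, while no TBP, Taf1 or TFIIH peak lies above the line.

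Of the 304 peaks, 47 were in the upper 10% of their list by area, which holds 10% of all peaks by construction. They comprised 18 H3K4me1, 10 total Pol II, 6 H3K4me3, 2 each of Ser2P, TFIIB, CBP, ETS1 and H3K36me3, and 1 each of Ser5P, TFIIE and FAIRE. In the upper 1% there were 12 of the 304, against 0.997% of all peaks. Of the 14 lists with a peak in the window, 9 had their best one in the upper 2%. A best rank also depends on the number of peaks a list has there, from 2 for ETS1 to 106 for total Pol II. That count of lists is therefore no measure of strength. Ranked by area per base instead, 22 of the 304 peaks were in the upper 10%, a smaller share than the 10% of all peaks. The excess by area was therefore not seen per base, and width contributed to the area ranks.

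The strongest CBP peak lay in a group with 8 of the 13 narrow lists, as many as any group of the window held. CBP is a histone acetyltransferase and coactivator often used to locate enhancers. Its peak at 54847011 to 54847460, 450 bp wide, ranked 9 of 6372 by area and 3rd by width, and overlapped peaks of 8 other lists. All 4 CBP peaks of the window overlapped TBP (29.8% in the whole list), 3 overlapped H3K4me3 (29.3%) and 2 overlapped ETS1 (11%). The remaining CBP peaks were at 54873691 to 54873890 (rank 585), 54776611 to 54776740 (rank 1416) and 54853181 to 54853250 (rank 3599). FAIRE had 5 of its 8 peaks of the window in the group around the strongest CBP peak, including the leading one at 54847021 to 54847440 (rank 178 of 11176). Of the 8 FAIRE peaks, 6 overlapped H3K4me3 (45.9% in the whole list) and 5 overlapped TFIIE (24.7%). The next in rank were at 54847651 to 54847810 (rank 1716) and, at a second site, 54852991 to 54853170 (rank 1858).

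ETS1, a transcription factor of the ETS family, had 2 peaks, at 54853011 to 54853310 (rank 29 of 2359) and 54847031 to 54847300 (rank 69), with their middles 6.00 kb apart. Both overlapped a CBP peak, as did 28.9% of all ETS1 peaks, and the left one, in the H3K4me1 gap described below, did not overlap H3K4me3, which 61.4% of the list did. Both sites carried the same 8 of the 13 narrow lists, namely total Pol II, Ser5P, TBP, TFIIB, TFIIE, CBP, ETS1 and FAIRE. The window held 17 groups of factor peaks in all, of which 7 had 5 or more lists, against 14% of groups in the genome, and these 2 had 8, against 2.85% with 8 or more. CBP was strong at the left site and of middling area at the right one (56.5% of its list), while ETS1 ranked in the upper 3% at both.

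The H3K4me1 list had a gap of 850 bp at the left site, from 54846881 to 54847730, that contained 11 factor peaks. Of the H3K4me3 peaks there, all ranked in the lower part of their list by area. They measured 960 bp (54845931 to 54846890, rank 18475), 370 bp (54847361 to 54847730, rank 18699) and 310 bp (54847751 to 54848060, rank 20681). A platform, defined as overlapping total Pol II and TBP peaks merged into a region, lay at 54846931 to 54847130 in the gap without either mark. Next to the gap on its left was an H3K4me1 peak of 2850 bp, at 54844031 to 54846880, which ranked 37 of 74607 by area per base. Between the left and right sites lay a smaller group at 54850731 to 54851250, with total Pol II, Ser5P, TBP, TFIIB and TFIIE and no CBP, ETS1 or FAIRE peak. None of these 3 groups overlapped H3K36me3 or Ser2P.

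**Figure D4:**
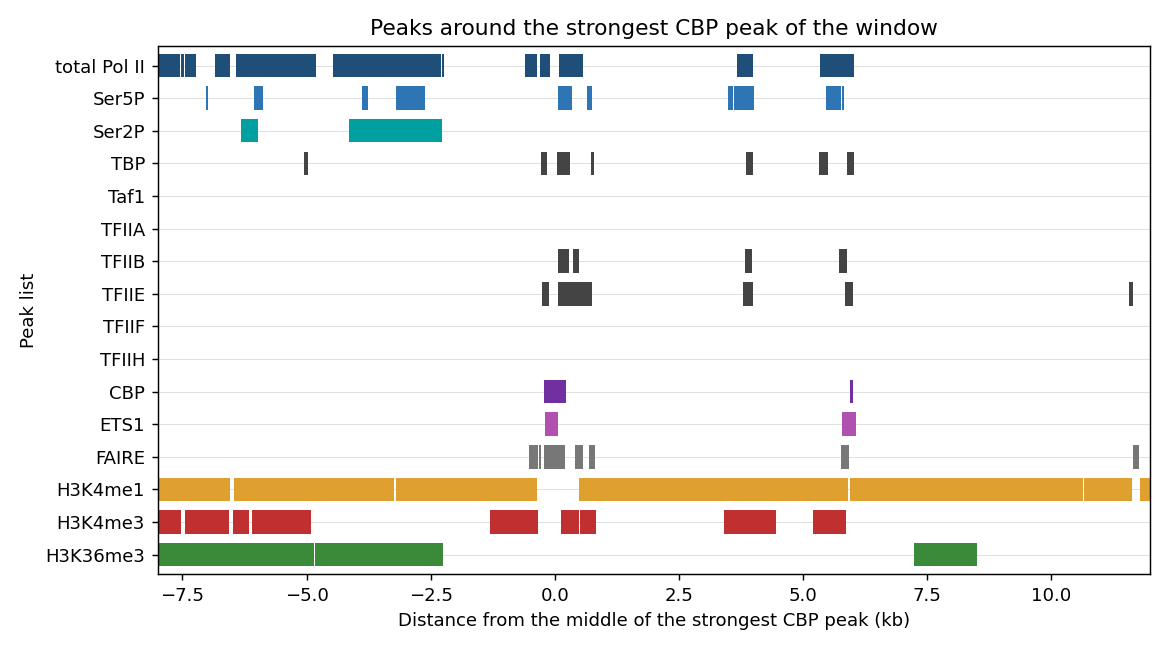
Peaks of the 16 lists from 8 kb left to 12 kb right of the middle of the strongest CBP peak. Each bar is a peak to scale and the horizontal axis is distance in kb. The last Ser2P peak ends to the left of 0, and CBP, ETS1, FAIRE, TBP, TFIIB and TFIIE meet at 0 and again near 6 kb.

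Over the window, 11 platforms of total Pol II and TBP were found, and 10 were H3K4me3-marked, against 75.9% of the 8649 platforms in the genome. Their median width was 390 bp, against 240 bp. The widest, 1610 bp at 54840821 to 54842430, ranked 40th of all platforms, and it overlapped Ser5P, Ser2P and H3K36me3 and no general factor other than the TBP that defines it. Its bounds were those of a total Pol II peak, and the TBP peak in it was 80 bp wide, rank 11851 of 15651. A platform of 800 bp at 54829131 to 54829930 overlapped Ser5P and H3K36me3, again with no general factor other than TBP. It too had the bounds of a total Pol II peak, with TBP peaks of 40 and 60 bp (ranks 14913 and 13185). The widths of both therefore reflect total Pol II, with weak TBP. Platforms of 720 bp (54852551 to 54853270) and 530 bp (54847271 to 54847800) covered the right and left sites and overlapped 6 other lists each. The platform between them, 330 bp at 54850901 to 54851230, overlapped Ser5P, TFIIB and TFIIE.

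To the left, platforms at 54791411 to 54791840 (430 bp, with Ser5P, TFIIB and TFIIH) and 54794991 to 54795380 (390 bp, with TFIIB) lay in the long H3K4me3 peak that opens the stretch. The first belonged to a group of 1660 bp at 54790371 to 54792030, 56.0 kb left of the CBP peak, with 6 of the narrow lists, Taf1 among them. Farther left, a platform of 140 bp at 54776621 to 54776760 overlapped Taf1, TFIIE, TFIIH and CBP. Its group, at 54776601 to 54777820 and 70.0 kb left of the CBP peak, had 7 of the 13 narrow lists, and no Ser5P, ETS1 or FAIRE peak was among them. It overlapped H3K4me3 peaks of 2260 and 3530 bp. CBP overlapped 5 of the 11 platforms (16.4% in the genome), ETS1 3 (9.27%), FAIRE 4 (33.3%), Ser5P 8 (58.8%), TFIIB 5 (52.6%), TFIIE 5 (61.6%), TFIIH 2 (28.4%), Taf1 1 (21.4%), Ser2P 1 (2.44%), TFIIA 0 (18.4%) and TFIIF 0 (6.57%). The left ETS1 peak, the strongest CBP peak and the leading FAIRE peak each overlapped both platforms of the left site. That site is thus counted more than once for these lists. With so few platforms these shares are descriptions.

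At the right end of the window stood a compact group at 54873381 to 54873890, 26.4 kb from the strongest CBP peak, with total Pol II, Ser5P, TBP, CBP and FAIRE. It lay in an H3K4me3 peak of 1550 bp at 54872841 to 54874390, which ranked 1238 of 28013 and stood 4th by area among those of the window. It held the platforms at 54873381 to 54873560 and 54873651 to 54873810. Neither had a peak of TFIIB, TFIIE, TFIIH or Taf1. Between this group and the right ETS1 site, 4 H3K36me3 peaks and a pair of TFIIE and FAIRE peaks at 54858801 to 54859000 (76.1% and 42.8% of their lists) were found, and no total Pol II, Ser5P or Ser2P peak.

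Dad1 and Abhd4, the last of the genes in the order given above, are transcribed away from each other from start sites 199 bases apart. The sequence between those start sites is shown because Dad1 is the gene next to Trac in that order and its promoter is the one of the locus for which a sequence was at hand. It is the RefSeq sequence of build GRCm38.p6, read on the minus strand towards Dad1, 5′ to 3′, with CCAAT and GGAA motifs on either strand in capitals:
Dad1 promoter: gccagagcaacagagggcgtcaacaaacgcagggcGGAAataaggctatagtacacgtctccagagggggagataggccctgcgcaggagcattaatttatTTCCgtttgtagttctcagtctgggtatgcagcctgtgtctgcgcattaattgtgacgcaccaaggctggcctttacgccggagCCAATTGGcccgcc
It is 54.8% G and C and has 11 CG pairs. CCAAT was matched 2 times, on opposite strands with shared bases, and 29.3% of 32851 RefSeq promoter stretches of the same length hold it. GGAA, the core of ETS family sites, was matched 2 times and is held by 88.9%. GGGCGG was matched 1 time, sharing bases with a GGAA, and is held by 31.0%. TGACG was matched 2 times and is held by 15.6%, and TATAAA was not matched and is held by 9.93%. Both strands were searched for each. Whether the group at the right end of the window lies on this promoter was not tested, since the builds differ. The promoter table has no entry for Tcra or Tcrd.

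Of its 215 narrow peaks, 198 overlapped H3K4me3, or 92.1% (exact interval 87.6 to 95.3), against 49.3% in the whole of the 13 lists. Another 10 (4.65%) overlapped H3K4me1 alone, against 10.3%, and 7 (3.26%) overlapped neither, against 40.4%. Without total Pol II, which gave 106 of the peaks, the share in H3K4me3 was 88.1% of 109 peaks, against 46.6%. These pooled shares were not adjusted for the covered length of H3K4me3, which was 46.6% of the window. Nor were they adjusted for the mix of lists, which differed in the window. Total Pol II and Ser5P, with 64.3% and 78.7% of their whole lists in H3K4me3, gave 106 and 38 peaks. Taf1, TFIIH and TFIIA, with 8.57%, 22.2% and 17.8%, gave 4, 4 and 0. Part of each difference between window and whole lists therefore comes from the mix. Of the 7 unmarked peaks, 5 lay in the H3K4me1 gap at the left CBP and ETS1 site, and they were peaks of FAIRE, total Pol II, TBP, TFIIE and ETS1. The other 2 were a TFIIB peak at 54772691 to 54772730 and the FAIRE peak at 54858881 to 54859000. The H3K4me1-only peaks included the leading total Pol II, Ser2P and Ser5P peaks, which all lay between 54842771 and 54844970.

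Windows of the same length at 3 other T-cell loci were set beside this one. They were at chromosome 6, 41400001 to 41560000 (T-cell receptor beta), chromosome 9, 44720001 to 44880000 (Cd3g, Cd3d and Cd3e), and chromosome 2, 101400001 to 101560000 (Rag1 and Rag2). They were placed from general knowledge of mm9 and not checked against an annotation, and no test of a difference was made. At the T-cell receptor beta locus, H3K4me3 covered 30.1 kb and H3K4me1 24.2 kb, against 74.5 and 103.7 kb at Tcra and Tcrd. Total Pol II covered 19.8 kb there with 30 peaks, against 27.1 kb with 106. In contrast, Ser5P covered 13.7 kb against 4.88 kb, TBP 7.38 against 1.41 kb, TFIIB 4.83 against 2.07 kb and TFIIE 5.14 against 1.42 kb. Taf1 went the other way, with 0.14 kb and 1 peak at beta against 0.29 kb and 4 peaks. The widest platform measured 3790 bp at beta and 1610 bp at Tcra and Tcrd. Each window also had a total Pol II peak of that same width.

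The loci differed in how many Ser2P peaks overlapped H3K4me3. At beta all 12 Ser2P peaks overlapped H3K4me3 and at Rag1 and Rag2, the recombinase genes, all 5 did, while 0 of 4 did at the Cd3g, Cd3d, Cd3e cluster, which encodes chains of the receptor's signalling complex. The share of H3K36me3 bases in H3K4me3 peaks was 78.8% at Tcra and Tcrd, 39.1% at beta, 36.9% at Rag1 and Rag2 and 5.65% at the Cd3 cluster. Of the narrow peaks, 92.1% overlapped H3K4me3 at Tcra and Tcrd, 98.4% at beta, 76.3% at Rag1 and Rag2 and 84.0% at the Cd3 cluster. H3K36me3 overlapped 30 of 38, 14 of 45, 16 of 27 and 5 of 27 Ser5P peaks in the same order. ETS1 had 3 peaks at beta, with the strongest of its list among them, 4 at the Cd3 cluster and 0 at Rag1 and Rag2. The best CBP peak ranked 9 at Tcra and Tcrd, 56 at beta, 323 at Rag1 and Rag2 and 1098 at the Cd3 cluster. H3K4me1 was the only other list with its best rank of the 4 loci at Tcra and Tcrd. For TBP the best ranks, in the same order, were 2050, 104, 269 and 421, and for Ser5P 801, 22, 170 and 142. By best rank, TFIIB, TFIIE and TFIIH were also weakest at Tcra and Tcrd. The upper 10% by area held 47 of 304 peaks at Tcra and Tcrd, against 64 of 232, 45 of 168 and 55 of 226 at the others in that order. TFIIA had 3, 8 and 3 peaks at beta, the Cd3 cluster and Rag1 and Rag2, and TFIIF 3, 3 and 1, where Tcra and Tcrd had none of either.

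**Figure D5:**
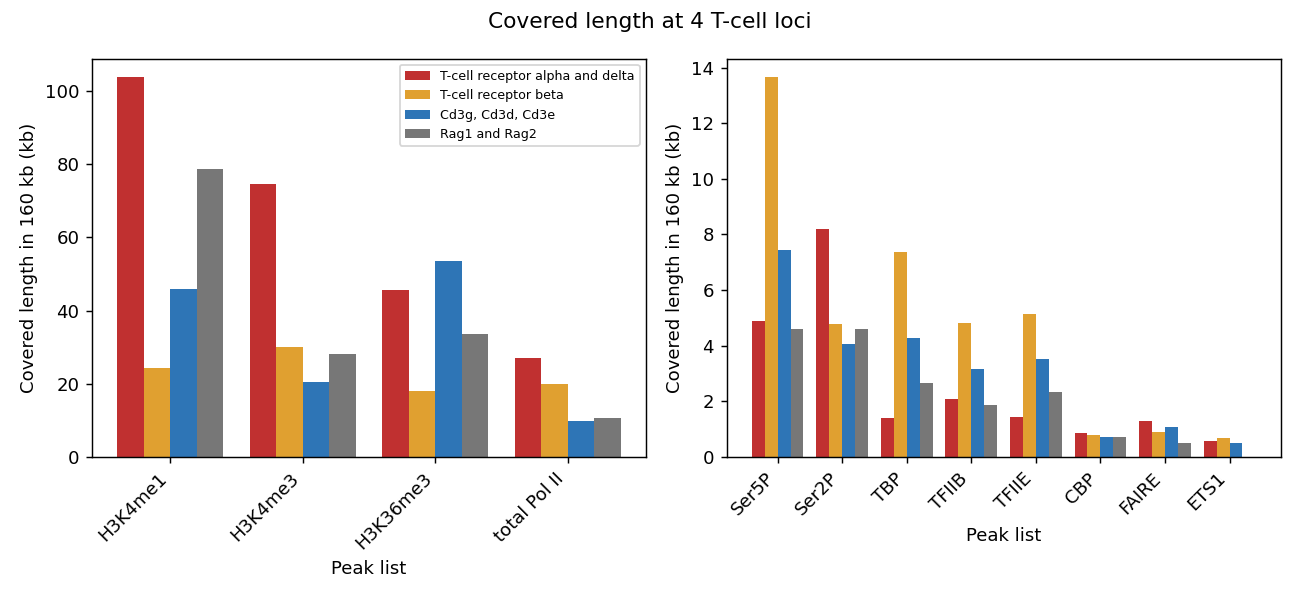
Length covered by peaks, in kb, in windows of 160 kb at 4 T-cell loci, with the histone marks and total Pol II on the left and 8 further lists on the right. Each bar is 1 list at 1 locus, with no error bar because there was 1 list per target. Tcra and Tcrd stand highest for H3K4me1, H3K4me3, total Pol II and Ser2P, and lowest of the 4 for TBP and TFIIE.

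The tiles most like the window were sought by the Euclidean distance between the percent ranks of covered length over the 16 lists. The nearest were on chromosome 7 at 104800001 to 104960000 (distance 15.1), chromosome 9 at 72160001 to 72320000 (18.5) and chromosome 15 at 96480001 to 96640000 (19.5), where the median tile stood at 218. The first held 40 total Pol II, 11 Ser2P, 21 TBP and 10 H3K4me3 peaks and, like Tcra and Tcrd, no TFIIA or TFIIF peak. Ranks near their upper limit differ little however far apart the lengths are, so a small distance does not mean equal coverage.

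Few peaks lay just outside the window on either side, and a window 20 kb longer on both sides held 305 peaks against 304. The last peak before it was an H3K4me3 peak 39510 bp away, and the first inside was an H3K4me1 peak 7771 bp from the edge. On the right, the last peak inside was an H3K4me1 peak that ended 200 bp before the edge, and the first outside was a Taf1 peak 6051 bp beyond it.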

How the data were processed

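The 16 lists are the authors' peak files in build mm9, per the submitters' processing notes, with 1 list per target. Their values are areas of the signal track over each peak, and the deposited track names record artefact removal, scaling and background subtraction for 15 tracks and none of these steps for FAIRE. Replicates were merged before 13 lists were made, and CBP, Taf1 and TFIIB come from 1 replicate each, per the deposited file and track names. For the aligner, peak caller and threshold the entry is: not given in the sources used here. Read depth is unknown. The RNA, input and rabbit immunoglobulin samples (4 of 20) were not analysed here.

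Peaks were ranked by area within their own list, with rank 1 for the highest. Overlap meant 1 bp or more in common. Coverage counted each base once. The genome was divided into 160 kb tiles from the first base of each chromosome to its last peak, tiles without peaks included. Peaks of the 13 narrow lists were grouped across gaps of up to 1000 bp. Intervals are exact 95% binomial (Clopper-Pearson) intervals and cover counting error only, and adjoining peaks are not independent. With 1 list per target no p-value was computed. The window, lists and comparisons were chosen with earlier results of these data known. Named were the peaks of lists with 6 or fewer in the window, the 3 of highest area of other lists, groups with 5 or more lists, all platforms and the 3 nearest tiles. Others, and Abhd4, were chosen after their values were seen. Alternatives changed the window, overlap rule, tiles, thresholds and group gaps. Overlap and coverage functions were first tested on simulated data. Tables were handled in pandas 2.3.3 under Python 3.11.15, intervals came from scipy 1.17.1, arrays from numpy 2.4.6, and plots from matplotlib 3.10.9.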

Additional observations from a re-analysis of the deposited data

How the results depend on the processing

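The 304 peaks of the window became 157 with the upper 50% of each list by area, while moving its ends by 20 kb gave 283 to 305. The 47 peaks in the upper 10% of their list became 22 when ranked by area per base and 28 in the upper 5%. The share of factor peaks in H3K4me3 was 96.3% within 500 bp and 77.7% with the upper 50% of H3K4me3 peaks, and the H3K4me1-only share was 16.3% in that last setting. The 17 peak groups became 9 with gaps up to 2000 bp. The 11 platforms became 3 with the upper 50% of each list and 106 with total Pol II alone, which by construction counts each of its peaks. Of alternatives chosen after seeing the data, leaving out the widest H3K4me3 peak reduced the covered length to 49.4 kb. Unknown depth limits what an absent peak can show. No paired analysis was possible because each target had 1 list and no replicate numbers.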
